A study of Mus musculus with 2 samples.

Results

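C1q-positive macrophages of the pancreatic islet were examined by single-cell RNA sequencing in virgin mice and in mice after repeated pregnancies. A droplet was taken as a C1q-positive macrophage when it held at least 5 UMIs (unique molecular identifiers, each counting 1 captured RNA molecule) of C1qb and C1qc together and none of the lymphocyte genes Cd3d, Cd3e and Cd79a. Its number of genes lay above 200 and below 6000 and its UMIs below 60000, with under 10% of UMIs from mitochondrial genes and under 15% from the hormone genes Ins1, Ins2, Gcg, Sst and Ppy. This gave 162 macrophages among 10538 cell barcodes, with 64 from virgin and 98 from multipara islets.

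All mice were wild-type C57BL/6J females. The multipara group went through 3 pregnancies in a row from 9 weeks of age and its islets were taken 3 weeks after the last delivery, whereas the virgin group was matched for age. Islets of both groups were kept for a short time in serum-containing medium and taken apart with trypsin, so every macrophage described here passed through that treatment. There was 1 library per group and its cells carry no map to single mice, while the study describes more than a single mouse per group without an exact number, so the comparisons below are between 2 libraries without a replicate check. Values in brackets after a level, share or ratio are exact 95% intervals and cover counting error only.

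Macrophages are the main resident immune cell of the islet and lie close to its capillaries and beta cells. They take up debris and secretory granule material, present peptides on MHC class II and release cytokines, chemokines and growth factors. C1q, the recognition molecule of the classical complement pathway, is built from chains encoded by C1qa, C1qb and C1qc and is made by many tissue macrophages.

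The promoters of C1qb and Trem2 are shown because the first gene defines these cells and the second, a receptor of lipid-sensing macrophages, had one of the best measured ratios among genes that were higher in multipara. The 250 bases before the transcription start were taken from RefSeq (GRCm38.p6), at chr4:136886201-136886450 on the minus strand for C1qb and chr17:48346151-48346400 on the plus strand for Trem2, and no annotated exon lies in either stretch. Capitals mark GAGGAA, or TTCCTC where it lies on the other strand, core letters of sites for ETS factors such as PU.1, which the macrophage gene Spi1 encodes.
C1qb: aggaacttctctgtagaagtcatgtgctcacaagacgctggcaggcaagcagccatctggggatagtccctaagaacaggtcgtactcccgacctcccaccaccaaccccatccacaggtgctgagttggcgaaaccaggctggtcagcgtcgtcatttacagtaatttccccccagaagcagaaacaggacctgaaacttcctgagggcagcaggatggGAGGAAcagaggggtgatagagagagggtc
Trem2: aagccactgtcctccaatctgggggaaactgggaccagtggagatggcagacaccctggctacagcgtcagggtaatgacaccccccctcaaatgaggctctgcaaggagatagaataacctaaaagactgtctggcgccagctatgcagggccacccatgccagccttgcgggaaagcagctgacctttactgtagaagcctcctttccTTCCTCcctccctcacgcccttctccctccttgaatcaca

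The letters occurred 1 time in each stretch, from base 221 in C1qb and from base 211 in Trem2. They were present on either strand in 7639 of 32851 promoters of this length (23.3%), so a match describes the stretch and marks no used site. Spi1 itself had 118 and 213 UMIs in virgin and multipara macrophages (log2 ratio 0.02, -0.31 to 0.36).

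The label held on genes that the definition did not use. C1qa, the chain left out of the rule, was found in 64 of 64 and 98 of 98 macrophages. Ms4a7, a membrane protein typical of tissue macrophages, was seen in 90.6% (80.7 to 96.5) and 98.0% (92.8 to 99.8), and in 0% and 0% of the 259 and 221 endothelial droplets of the same libraries. Csf1r, the receptor for the growth factor that keeps macrophages alive, was seen in 82.8% (71.3 to 91.1) and 87.8% (79.6 to 93.5), against 0.386% and 0.452% of endothelial droplets. Endothelial droplets were taken with under 5 UMIs of C1qb and C1qc and under 5 of Tyrobp and Fcer1g. Their low values of myeloid genes therefore follow in part from that cut. Myeloid droplets with under 5 C1q UMIs held Ms4a7 in 14.3% and 18.2% and Csf1r in 14.3% and 36.4%. Endothelial droplets had medians of 4661 and 5358 UMIs, and macrophages of 5930 and 6772. Csf1r or Ms4a7, together with Tyrobp or Fcer1g, the signalling adaptors of myeloid receptors, were found in 61 of 64 and 97 of 98 macrophages.

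Genes of other blood cells were mostly absent or scarce. The rule itself required Cd3d, Cd3e and Cd79a to be at 0, so zeros of these genes follow from the choice of droplets. Low values of other lymphocyte genes follow from it in part. Of 11 T and natural killer cell genes, 10 were at 0 in both libraries, the exception being Ccl5 with 147 and 270 UMIs, and of 9 neutrophil genes 8 were at 0, the exception being Csf3r. The 10 monocyte genes gave 59 and 73 UMIs, led by Ccr2 with 31 and 46, and 5 and 6 of them, Ly6c2 included, were at 0. The 15 dendritic cell genes gave 100 and 161 UMIs, most of them from Il12b (41 and 70), Siglech (28 and 42) and Batf3 (14 and 29), while Zbtb46 was at 0 and Flt3 had 1 and 0 UMIs. The B cell list had 102 and 144 UMIs, of which Ighm gave 77 and 121, while Ms4a1 was at 0.

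Few droplets lay near the limit of 5 C1q UMIs. Among low-hormone droplets without lymphocyte genes, 559 virgin and 410 multipara droplets had no C1qb or C1qc UMI. Between 1 and 4 such UMIs were found in 7 and 6 droplets, of which 0 and 2 held Csf1r or Ms4a7. Between 5 and 19 were found in 15 and 13 droplets, of which 12 and 12 held one of those genes, and 20 or more in 49 and 85 droplets, of which all did. The hormone limit left out a further 4 and 9 droplets, the mitochondrial limit 3 and 7, and the lymphocyte genes 1 and 0. No macrophage was called a doublet, and none of the 7 barcodes that occurred in both libraries was a macrophage.

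C1q-positive macrophages made up 64 of 4391 filter-passing virgin barcodes, or 1.46% (1.12 to 1.86), and 98 of 3374 multipara barcodes, or 2.90% (2.36 to 3.53). The intervals did not overlap. The order was the same over all barcodes, at 1.17% (0.903 to 1.49) and 1.93% (1.57 to 2.35), and over low-hormone barcodes, at 6.72% (5.22 to 8.50) and 16.3% (13.4 to 19.5). The low-hormone barcodes differed in make-up between libraries. Those that were not macrophages held the B and plasma cell list at 62063 and 14974 CPM and the red blood cell list at 888 and 50957. There were 24.7 and 44.3 macrophages per 100 endothelial droplets. Droplets with T cell genes stood in the opposite order, at 2.73% (2.27 to 3.26) and 1.13% (0.798 to 1.54) of filter-passing barcodes. Myeloid droplets with little C1q were 0.638% (0.424 to 0.920) and 0.326% (0.163 to 0.583), with overlapping intervals. The intervals also overlapped for endothelial droplets, at 5.90% (5.22 to 6.64) and 6.55% (5.74 to 7.44). With 1 library each, differences between mice, islet preparations and groups cannot be told apart, and the part of dissociation in these shares was not tested.

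**Figure D1:**
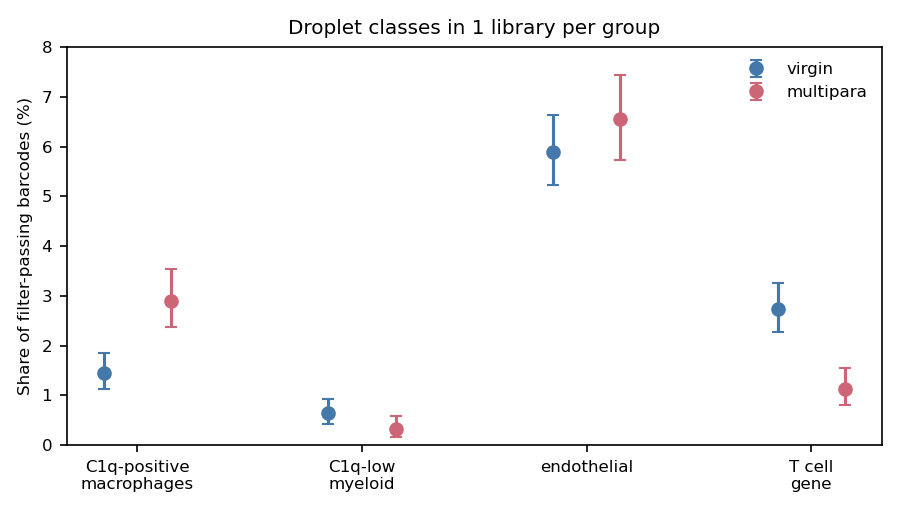
Share of filter-passing barcodes (percent, vertical axis) in 4 droplet classes of the virgin and multipara libraries, 1 library each. Points are shares and bars are exact 95% binomial intervals. The macrophage share was 1.46% in virgin and 2.90% in multipara, while T cell gene droplets stood in the opposite order.

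The RNA of the macrophages was led by antigen presentation, lipid transport and iron storage. Levels are given as CPM, the usual scaling of a gene's UMIs by the total of its library, taken over the summed macrophages, which held 367163 UMIs in virgin and 652612 in multipara. Each molecule is tagged once at its 3′ end, so CPM can be set side by side between genes without a correction for length. Cd74, the invariant chain of MHC class II, was at 36905 and 43889.8 CPM. Apoe, a carrier of cholesterol and other lipids, was at 31242 and 46925 CPM. Fth1, the ferritin heavy chain that stores iron, was at 22987 and 26762 CPM. The chains C1qa, C1qb and C1qc were lower but in nearly equal amounts between libraries, at 5646 and 5599, at 5711 and 5841 and at 3108 and 2933 CPM. Mitochondrially encoded genes gave 4.33% and 4.22% of UMIs, cytosolic ribosomal protein genes 17.1% and 16.4%, and the 10 most abundant genes 19.1% and 23.1%.

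Ranked by their excess over all other low-hormone droplets, which is a description because the rule selected these cells, the leading genes after the C1q chains included chemokines and cytokines. Among them were Ccl4, Ccl3, Cxcl2, Tnf and Il1b, beside Ms4a7, Lyz2, Wfdc17, Fcer1g, Ctss, Tyrobp and Csf1r. Ccl4, which attracts T cells and monocytes, was at 11175 and 14716 CPM in the macrophages and 60.8 and 69.8 in the other low-hormone droplets. Tnf, a central inflammatory cytokine, was at 1533 and 1764 CPM against 8.34 and 7.56. The excess was present in both libraries.

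The nearest cell class in the same libraries were the C1q-low myeloid droplets, 28 in virgin and 11 in multipara, which carried myeloid genes but under 5 C1q UMIs. They shared MHC class II, with Cd74 at 24266 and 30977 CPM. They also carried inflammatory genes at levels below those of the macrophages, with Ccl4 at 948 and 2175 CPM, Tnf at 114 and 243 and Il1b at 654 and 1297. These 3 were higher in the multipara library in both classes. Apoe was at 31242 and 46925 CPM in the macrophages against 176 and 1999, and Mmp12, the macrophage elastase, at 485 and 484 against 0 and 54.0. The anaphylatoxin receptor C3ar1 (239.7 and 276 CPM), Olfml3 (119.8 and 161 CPM) and Trem2 (147 and 401 CPM) had no UMI in the C1q-low droplets of either library. In the other direction, Plac8 was at 2.72 and 0 CPM in macrophages against 523 and 432, S100a4 at 10.9 and 12.3 against 801 and 554, the migration receptor Ccr7 at 5.45 and 7.66 against 225 and 905 and Flt3 at 2.72 and 0 against 119 and 122. These contrasts went the same way in both libraries, and they describe classes that were cut on C1q.

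**Figure D2:**
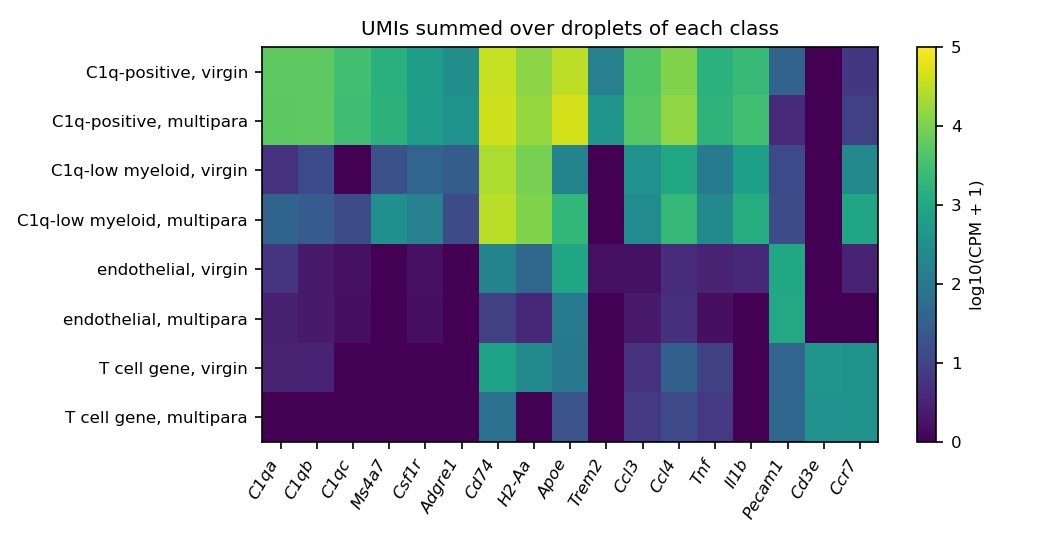
Levels of selected genes (columns) in C1q-positive macrophages and in 3 other droplet classes of each library (rows), as log10(CPM + 1) of UMIs summed over droplets. The C1q genes, Trem2, Ccl3 and Tnf are brightest in the macrophage rows, Cd74 is shared with C1q-low myeloid droplets, and the endothelial and T cell gene rows have their own markers.

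Between the libraries the macrophages were compared for 3139 genes with at least 30 UMIs over both. In multipara macrophages 42 genes (1.34%) were at least 2-fold higher and 130 (4.14%) at least 2-fold lower, with a median log2 ratio of -0.12 over all genes tested. This split depended on the scaling: with trimmed-mean (TMM) factors 92 genes were higher and 75 lower, and with median-of-ratios factors 92 and 73, since those factors shifted every gene by 0.22 and 0.24 on the log2 scale. Ratios below are log2 ratios of multipara over virgin CPM, given in brackets with their interval, and list medians are read against the median of all genes. The medians of the MHC class I, NF-kB, immediate early, complement, heat shock, iron and heme, lysosome, cell cycle and TREM2 lists, all below 0 as CPM ratios, turned positive with both of those factors, and that of the pattern recognition list with the median-of-ratios factors alone. Counting intervals excluded 0 for 27 of the 42 higher and 120 of the 130 lower genes. These genes were picked for passing 2-fold, so the counts are descriptions. Virgin macrophages also held fewer UMIs (367163 against 652612), which widens the intervals of higher genes more. Intervals lay wholly past 2-fold for 4 higher genes (Ins2, Ins1, Trem2 and Otud1) and for 20 lower genes. Otud1, a deubiquitinase, had 5 UMIs in 5 virgin and 53 UMIs in 20 multipara macrophages and is named after its values were seen.

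**Figure D3:**
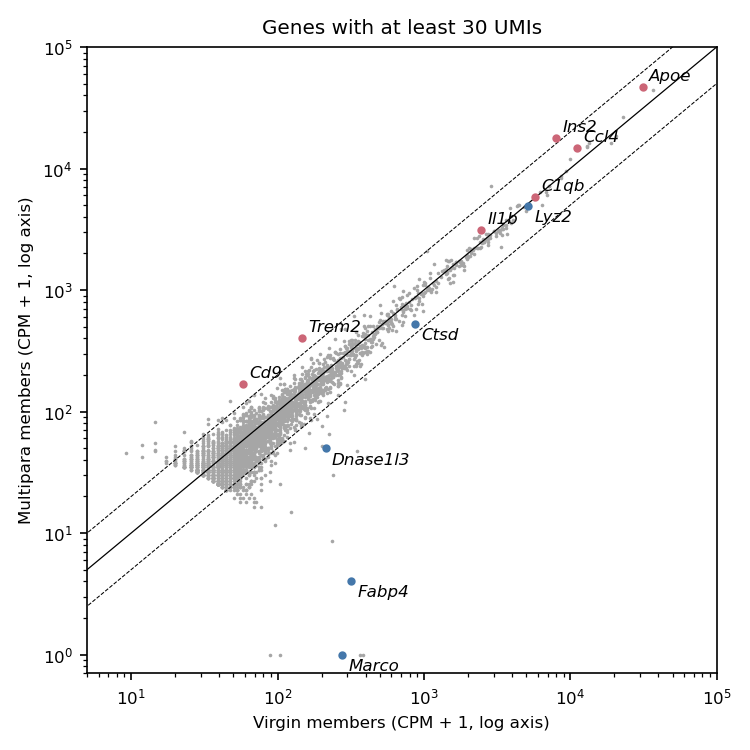
Level of each of 3139 genes in virgin (horizontal) and multipara (vertical) macrophages, as CPM + 1 on log axes, with lines of equality and of 2-fold difference. Trem2, Cd9 and Ins2 lie above the 2-fold line, C1qb and Lyz2 lie near equality, and Marco lies far below because 3 virgin macrophages held all of its UMIs.

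Trem2, which signals through Tyrobp, had 54 and 262 UMIs in virgin and multipara macrophages. That is 147 CPM (110.5 to 192) and 401 CPM (354 to 453), a log2 ratio of 1.45 (1.02 to 1.90). It was seen in 25 of 64 and 70 of 98 macrophages, or 39.1% (27.1 to 52.1) and 71.4% (61.4 to 80.1), against 0.386% and 0% of endothelial droplets. The multipara library thus held both more macrophages with Trem2 and more Trem2 relative to all UMIs. Because multipara macrophages were somewhat deeper, each macrophage was also thinned to 3500 UMIs, leaving out 15 virgin and 14 multipara macrophages that were shallower. Trem2 was then seen in 17 of 49 (34.7%, 21.7 to 49.6) and 55 of 84 (65.5%, 54.3 to 75.5). The richest macrophage held 11.1% of the virgin and 9.16% of the multipara Trem2 UMIs, and the ratio lay between 1.16 and 1.69 over the alternatives tried.

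Cd9, a tetraspanin often found with Trem2 on lipid-laden macrophages, had 21 and 109 UMIs, or 57.2 and 167 CPM, a log2 ratio of 1.55 (0.86 to 2.29). It was seen in 18.8% (10.1 to 30.5) and 45.9% (35.8 to 56.3) of macrophages. Endothelial droplets also carried Cd9, in 48.6% and 41.2% of droplets and at 236 and 121 CPM, with the libraries in the opposite order. C1q-low myeloid droplets carried more Cd9 than macrophages in both libraries, at 217 and 284 CPM and in 64.3% and 54.5% of droplets. One virgin macrophage held 33.3% of the virgin Cd9 UMIs, and without the virgin macrophage that carried endothelial genes, described further on, the ratio was 2.07.

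Apoe varied widely among macrophages of both libraries. Thinned virgin macrophages had from 0 to 307 Apoe UMIs of 3500, with a median of 107, and multipara macrophages from 0 to 335, with a median of 159. The lower quartiles were 35 and 105, so the ranges overlapped almost wholly while macrophages with little Apoe made up more of the virgin library. Summed over all macrophages the log2 ratio was 0.59 (0.56 to 0.62). In endothelial droplets Apoe stood in the opposite order, at 905 and 111 CPM. In C1q-low myeloid droplets it stood in the same order as in macrophages, with 43 and 148 UMIs, or 176 and 1999 CPM.

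The list of TREM2-linked and lipid-handling genes did not move together. Of 14 tested, 2 were at least 2-fold higher (Trem2 and Cd9), 3 at least 2-fold lower (Fabp4, Fabp5 and Nr1h3), and 6 lay above the median of all genes. The list median was -0.17 and turned positive with TMM and median-of-ratios factors and without the macrophages rich in resident genes described below. Lpl, the lipase that frees fatty acids from lipoproteins, had 18 and 39 UMIs (0.29, -0.55 to 1.18), and Plin2, the coat protein of lipid droplets, 128 and 169 UMIs (-0.43, -0.77 to -0.09). The cholesterol exporters Abca1 (23 and 48 UMIs, 0.23, -0.51 to 1.02) and Abcg1 (27 and 36 UMIs, -0.41, -1.17 to 0.36) had intervals that included 0. Gpnmb and Spp1, which also mark lipid-associated macrophages, had 0 and 3 and 3 and 13 UMIs.

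**Figure D4:**
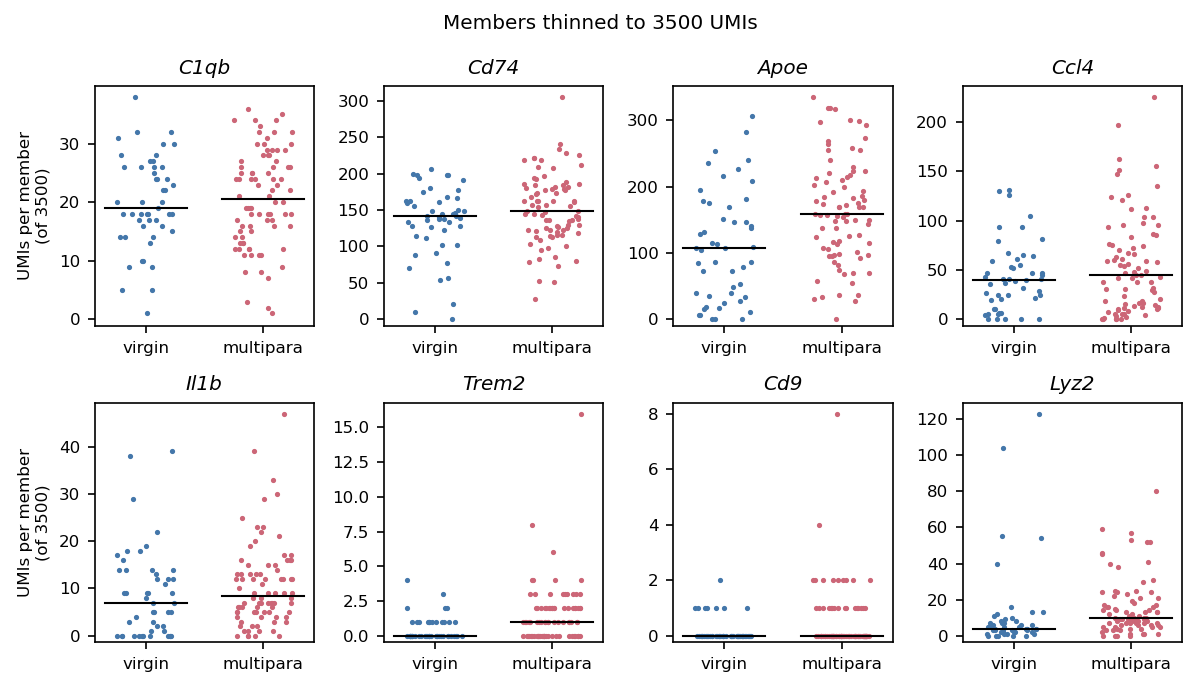
UMIs of selected genes in single macrophages thinned to 3500 UMIs (vertical axes), with 49 virgin and 84 multipara macrophages. Bars are medians and the sideways spread of points has no meaning. Median Apoe UMIs were 107 and 159, median Lyz2 UMIs 4 and 10, and median C1qb UMIs 19 and 20.5.

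Cd14 and Tlr2, receptors for bacterial cell wall products, were both higher in multipara. Cd14 was at 621 and 1083 CPM (0.80, 0.59 to 1.02), in 41 and 85 macrophages, and Tlr2 at 389 and 624 CPM (0.68, 0.40 to 0.96), in 36 and 83 macrophages. Of 8 pattern recognition genes tested none passed 2-fold and 3 lay above the median of all genes. Their median was -0.23, but 0.01 with median-of-ratios factors, 0.05 with no limit on hormone UMIs and 0.68 over genes of at least 60 UMIs, and the ratio of the summed list was 0.39 (0.25 to 0.53). Clec4a3 (29 and 27 UMIs, -0.93, -1.74 to -0.13) lay at the low end. Fc receptor genes, through which macrophages bind antibody, had a median of 0.08 over 8. That median turned negative under several alternatives, among them -0.07 with each macrophage weighted equally and -0.01 without the macrophages rich in resident genes. Fcgr4 was at 221 and 153 CPM (-0.53, -0.96 to -0.08) and Fcgr3 at 324 and 368 (0.18, -0.14 to 0.51).

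Complement beyond C1q was split between widely and narrowly present genes. The receptors C3ar1 (88 and 180 UMIs in 34 and 71 macrophages, 0.20, -0.17 to 0.59) and C5ar1 (39 and 74 UMIs in 23 and 39, 0.09, -0.48 to 0.69) were seen in a large part of the macrophages, with intervals that included 0. C3, the central component of the cascade, had 150 UMIs in 10 virgin and 27 UMIs in 6 multipara macrophages. Cfp, or properdin, which stabilises the alternative pathway, had 88 UMIs in 10 virgin and 19 UMIs in 6 multipara macrophages. Of 9 complement genes tested none was 2-fold higher and 3 were 2-fold lower, C3 and Cfp among them.

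Chemokine RNA varied widely between single macrophages. After thinning, the 17 chemokine genes gave from 6 to 284 of 3500 UMIs in virgin and from 2 to 343 in multipara macrophages, with medians of 78 and 85. Ccl4 alone gave at least 1% of UMIs in 28 of 49 (57.1%) and 49 of 84 (58.3%), while 2 macrophages in each library had neither Ccl3 nor Ccl4. Ccl3 and Ccl4, neighbouring genes of one cluster, varied together across thinned macrophages, with Spearman's rho of 0.88 in 49 virgin and 0.86 in 84 multipara macrophages. Ccl4 varied less closely with Tnf (0.51 and 0.72), and with Il1b the rho was 0.33 in virgin and -0.21 in multipara. The macrophages of a library share its preparation, so these rho values are descriptions.

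Of 15 chemokine genes tested none was 2-fold higher in multipara macrophages and 2 were 2-fold lower, while 11 lay above the median of all genes and the list median was 0.29. Ccl3 had a log2 ratio of 0.16 (0.07 to 0.25), which was -0.01 without the macrophages rich in resident genes, Ccl4 of 0.40 (0.34 to 0.45) and the neutrophil attractant Cxcl2 of 0.29 (0.20 to 0.38). Cxcl10, induced by interferon, had 0.31 (0.16 to 0.46), and Ccrl2, a chemokine-binding receptor, 0.42 (0.24 to 0.61). Cxcl1 had 38 UMIs in 11 virgin and 123 UMIs in 22 multipara macrophages (0.86, 0.33 to 1.43). The abundant chemokines named here were thus higher in multipara over all macrophages, by less than 2-fold.

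Ccl2, the main monocyte attractant, stood in the opposite order, with 110 UMIs in 20 virgin and 108 UMIs in 28 multipara macrophages (-0.86, -1.25 to -0.46). The chemokines that were 2-fold lower were Ccl8, with 133 UMIs in 7 virgin macrophages and 0 UMIs in multipara, at least 78.8-fold lower, and Cxcl9, with 86 UMIs in 8 virgin and 5 UMIs in 2 multipara macrophages. One virgin macrophage held 72.9% of the Ccl8 UMIs. Of the 8 genes of the chemokine receptor list, which does not hold Ccrl2, the fractalkine receptor Cx3cr1 was highest, at 221 and 293 CPM (0.41, 0.03 to 0.80).

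Among cytokines, Il1b was at 2451 and 3111 CPM (0.34, 0.23 to 0.46) and Tnf at 1533 and 1764 CPM (0.20, 0.06 to 0.35). After thinning Il1b was seen in 37 of 49 (75.5%, 61.1 to 86.7) and 79 of 84 (94.0%, 86.7 to 98.0), against 0.772% and 0% of endothelial droplets without thinning. Il1b was not confined to macrophages: C1q-low myeloid droplets, also without thinning, held it in 64.3% and 72.7%, at 654 and 1297 CPM. RNA of all 5 of Ccl3, Ccl4, Cxcl2, Tnf and Il1b was found in 25 of 49 (51.0%, 36.3 to 65.6) and 61 of 84 (72.6%, 61.8 to 81.8) thinned macrophages. More multipara macrophages thus held detectable Il1b, while the medians of Tnf, at 3 and 3 UMIs, were equal.

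Ifnb1, or interferon beta, had 91 UMIs in 14 virgin and 258 UMIs in 31 multipara macrophages (0.67, 0.32 to 1.03), and Osm, or oncostatin M, had 14 UMIs in 11 virgin and 55 UMIs in 30 multipara macrophages (1.14, 0.28 to 2.11). Il18, released by inflammasomes, had 32 UMIs in 15 virgin and 17 UMIs in 13 multipara macrophages (-1.74, -2.68 to -0.85), with 46.9% of the virgin UMIs in 1 macrophage. Il10 had 3 and 4 UMIs, and Ifng, Il12a and Lta had none. Of 9 cytokine genes tested, 1 was 2-fold higher (Osm) and 1 lower (Il18), with a median of 0.09.

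Targets of NF-kB, the factor downstream of Toll-like and TNF receptors, were balanced. Of 19 tested, none was 2-fold higher, 2 were 2-fold lower (Relb and Traf1) and 10 lay above the median of all genes. Nfkbia, which encodes the feedback inhibitor, was at 2519 and 2562 CPM, Cd83 at 708 and 878 (0.31, 0.10 to 0.53) and Nfkbiz at 1122 and 965 (-0.22, -0.40 to -0.03). Across thinned macrophages the summed NF-kB and chemokine lists had a rho of 0.36 in virgin and 0.56 in multipara, and the interferon and chemokine lists of 0.33 and 0.47.

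Immediate early genes, which respond within minutes to stimuli that include tissue dissociation, were high in both libraries, with a median ratio of -0.02 over 20 genes. Fos was at 1964 and 1955 CPM and Junb at 2293 and 2671. In endothelial droplets Fos was at 3327 and 3122 CPM and in T cell gene droplets at 372 and 288. Only Ier3 passed 2-fold, at 289 and 119.5 CPM (-1.27, -1.71 to -0.84), and its ratio was -0.65 without the macrophages rich in resident genes. The part of dissociation in the chemokine and cytokine levels was not tested.

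MHC class II genes were high in nearly every macrophage. After thinning, the 12 genes of the list had medians of 313 and 323 of 3500 UMIs and lowest values of 1 and 66. Cd74 had a log2 ratio of 0.25 (0.22 to 0.28), and H2-Aa, H2-Ab1 and H2-Eb1, which encode the peptide-binding chains, of 0.25, 0.21 and 0.25. Over the alternatives tried Cd74 ranged from 0.10 to 0.49. The list median was 0.18, but 0.08 without the macrophages rich in resident genes, and ranged from 0.05 to 0.43. Of 10 tested, 8 lay above the median of all genes and 1, H2-Oa, was 2-fold lower with 31 and 27 UMIs. Class I genes had a median of -0.19, with H2-K1 at 1885 and 1469 CPM (-0.36, -0.50 to -0.22). H2-Q7, at 218 and 90.4 CPM, was 2-fold lower, but it belongs to a family of near-identical genes between which reads can be split.

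Interferon-response genes had the highest median of the lists with at least 5 genes tested, 0.35, with 10 of 15 above the median of all genes, 1 at least 2-fold higher (Rtp4) and 1 at least 2-fold lower. Ifi27l2a was at 269.6 and 477 CPM (0.82, 0.49 to 1.16), and Bst2, or tetherin, at 670.0 and 853 (0.35, 0.13 to 0.57). The antiviral genes Ifit1 and Ifit3 had 36 and 102 UMIs (0.67, 0.11 to 1.26) and 15 and 53 UMIs (0.99, 0.14 to 1.92). The list was not uniform, since only 8 of the 15 genes had ratios above 0. Isg15 was at 741 and 700.3 CPM (-0.08, -0.30 to 0.14), an interval that included 0. Ifi204 had a ratio of -0.51 and Xaf1 of -0.37. Over the alternatives tried they ranged from -0.60 to -0.26 and from -0.97 to -0.10.

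**Figure D5:**
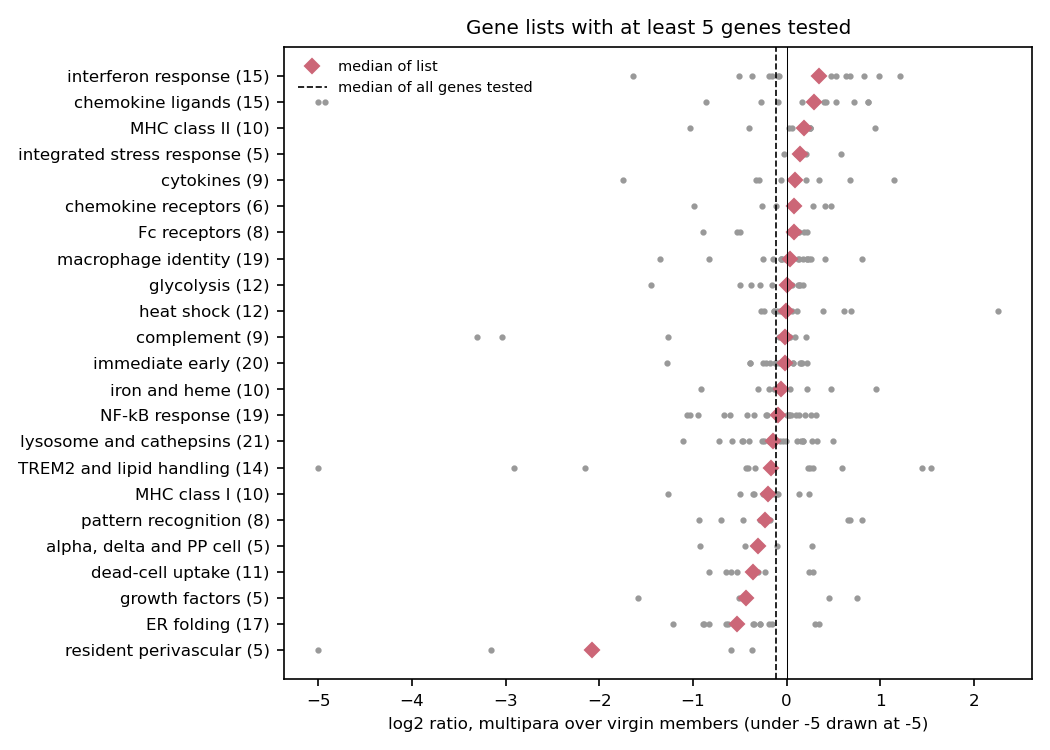
Log2 ratios (multipara over virgin macrophages, horizontal axis) of single genes (points) and their list medians (diamonds) for gene lists with at least 5 genes tested. The dashed line is the median of all genes, -0.12. Interferon response (0.35) and chemokine ligands (0.29) have the highest medians, ER folding (-0.53) and the resident perivascular list (-2.08, but -0.17 without the 7 macrophages rich in its genes) the lowest.

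Genes of protein folding in the endoplasmic reticulum were lower on balance. Of 17 tested, 2 lay above the median of all genes and 1 was 2-fold lower, P4hb. The list median was -0.53 and stayed negative under the alternatives tried, from -0.64 to -0.27, the weakest value being that without the macrophages rich in resident genes. The disulfide isomerase P4hb was at 128 and 55.2 CPM (-1.21, -1.88 to -0.56), in 33 and 29 macrophages. The lectin chaperone Canx had 65 and 62 UMIs (-0.90, -1.42 to -0.37) and Calr, its soluble relative, 357 and 498 UMIs (-0.35, -0.55 to -0.15). The members above the median were Hspa5, the chaperone BiP, at 2192 and 2698 CPM (0.30, 0.18 to 0.42), and Herpud1, at 512 and 651 (0.35, 0.10 to 0.60). Since Hspa5 is the most abundant, the summed UMIs of the list had a ratio of -0.10 (-0.18 to -0.03).

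Other stress genes differed little. The integrated stress response list had a median of 0.15 over 5 genes, with Atf3 at 2018 and 2233 CPM (0.15, 0.02 to 0.28) and Ddit3 at 65.4 and 98.1 (0.59, -0.11 to 1.33). The heat shock list had a median of -0.01 over 12. Hspa1a and Hspa1b, near-identical copies between which reads can be split, had 142 and 330 and 40 and 109 UMIs, and Dnajb1 62 and 178 UMIs (0.69, 0.27 to 1.13). Hspb1, the 1 member past 2-fold, had 4 UMIs in 2 virgin and 34 UMIs in 7 multipara macrophages.

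Lysosomal genes were abundant, and single enzymes differed in both directions. Ctss, the cathepsin that trims the invariant chain, was at 4344 and 4922 CPM (0.18, 0.09 to 0.27). Psap, the precursor of activators of sphingolipid breakdown, was at 3366 and 2254 CPM (-0.58, -0.69 to -0.47) and the protease Ctsd at 872 and 527 (-0.73, -0.95 to -0.50), with 37.2% of the virgin Ctsd UMIs in 1 macrophage. Lipa, which frees cholesterol from its esters, was at 185 and 85.8 CPM (-1.11, -1.65 to -0.58). These 3 ratios depended on the setting. Over the alternatives tried Ctsd ranged from -0.78 to -0.01, Psap from -0.61 to -0.18 and Lipa from -1.16 to -0.47. Over 21 genes the median was -0.15, with 10 above that of all genes and only Lipa past 2-fold. Genes for the uptake of dead cells had a median of -0.36 over 11, with 2 above that of all genes and none past 2-fold. Axl, a receptor for dying cells, had 85 and 122 UMIs (-0.31, -0.72 to 0.11).

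Hmox1, the heme-degrading enzyme, had 23 UMIs in 16 virgin and 79 UMIs in 31 multipara macrophages (0.95, 0.27 to 1.69), with 27.8% of the multipara UMIs in 1 macrophage. The iron and heme list had a median of -0.06 over 10, and Ftl1, the ferritin light chain, was at 9375 and 9594 CPM. Growth factors were sparse. Pdgfb, a mitogen for pericytes, had 40 and 97 UMIs (0.45, -0.10 to 1.02), Vegfa 11 and 33 and the secreted progranulin gene Grn 122 and 153 (-0.50, -0.86 to -0.15). The Grn ratio ranged from -0.54 to 0.04 over the alternatives tried. Igf1, an insulin-like growth factor, had 22 UMIs in 5 virgin and 13 UMIs in 4 multipara macrophages, and all 22 virgin UMIs lay in macrophages rich in the resident genes described below. Of the purine receptors, which sense extracellular nucleotides, P2rx4 had 46 and 73 UMIs and P2ry6 29 and 67. The alternative activation genes Arg1 and Retnla had 0 and 1 UMIs and none.

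Receptors for pregnancy hormones were nearly absent. Prlr, the prolactin receptor, had no UMI in virgin macrophages, which allows up to 3 of 367163 UMIs, and 13 UMIs in 12 multipara macrophages, at least 2.44-fold higher. Endothelial droplets held Prlr in the same order, at 6.50 and 21.1 CPM against 0 and 19.9 in macrophages. The multipara level was thus not above that of another cell type of the same library. Esr1 had 2 and 2 UMIs and Esr2 and Pgr had none, while Nr3c1, the glucocorticoid receptor, had 23 and 26. Proliferation genes were scarce, Mki67 being seen in 6 and 4 macrophages and Top2a in 1 and 4. Glycolysis genes had a median of 0.00 over 12, and of the cholesterol synthesis list only Insig1 reached 30 UMIs (16 and 28).

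Insulin RNA was present in every macrophage. Ins2 was at 7996 and 17684 CPM (1.15, 1.09 to 1.20) and Ins1 at 2876 and 7151 (1.31, 1.22 to 1.41). Droplets of other cell types had Ins2 in the same order, at 6680.0 and 13494 CPM in endothelial and 9658 and 22205 in T cell gene droplets. Gcg, the glucagon gene, stood in the opposite order, at 1582 and 1165 CPM in macrophages and 1674 and 1204 in endothelial droplets. Pdx1 and Slc2a2, beta cell genes that encode no secreted hormone, had 0 and 1 and 1 and 4 UMIs. In each library the Ins2 level of the macrophages thus lay between those of endothelial and T cell gene droplets, neither of which makes insulin.

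A small set of macrophages was rich in a list of genes typical of other resident macrophages. The list of 14 genes typical of perivascular and other long-lived resident macrophages gave at least 10 UMIs in 6 virgin macrophages (61, 55, 52, 33, 26 and 12) and in 1 multipara macrophage (17), while no other virgin or multipara macrophage had more than 4 or 5. This division was made after the values were seen. No list gene named here was seen in all 6 virgin macrophages: Marco was seen in 3, Timd4 in 2, Folr2 in 3 and Fcna and Pf4 in 4 each. Whether they form 1 cell type was not tested. Every virgin UMI of Marco, a scavenger receptor (101 of 101 UMIs, in 3 macrophages), Timd4, a receptor for dying cells (13 of 13), and the folate receptor Folr2 (9 of 9) lay in these 6. These genes, like Fcna and Pf4 (37 of 38 and 31 of 35 virgin UMIs), are on the list that picked the cells, so their concentration there follows from the choice. Marco had no UMI in multipara, at least 59.8-fold lower. Of genes outside the list, the 6 macrophages held 73 of 150 virgin UMIs of C3 and 72 of 88 of Cfp. C3 was at 1395 CPM in the 6, 295 without the macrophage of most UMIs and 245 in the other 58. Its excess thus rested largely on 1 macrophage. Cfp was at 1376, 819 and 50.8 CPM in the same order.

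Cd74 was at 10151 CPM in these 6 against 41349.7 in the other 58 virgin macrophages. A single macrophage of 21773 UMIs, with 1 Cd74 UMI, lowered that pooled level, which was 17355 CPM without it, and the other 5 ranged from 2877 to 23519 CPM. Ms4a7 was at 822 CPM against 1588. The multipara macrophage rich in the list held all 16 Fcna UMIs of its library, 22 of 27 C3 UMIs and 13 of 19 Cfp UMIs. Lyve1, the classical perivascular marker, had only 2 and 1 UMIs and Vsig4 none.

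These few cells set several differences between the libraries. The list median was -2.08 over 5 genes tested, -0.17 without the 7 macrophages and -1.44 with each macrophage weighted equally. Of the 130 genes that were 2-fold lower in multipara 87 were still so without the 7 macrophages, and of the 42 higher genes 33 were. Lyz2, or lysozyme, was at 5145 and 4954 CPM over all macrophages (-0.05), but 1 virgin macrophage of 21773 UMIs held 856 of its 1889 virgin UMIs. Without the 7 macrophages the Lyz2 ratio was 0.78, and the median thinned macrophage held 4 Lyz2 UMIs in virgin and 10 in multipara. Vcam1, an adhesion molecule, had a ratio of -1.46 (-1.93 to -1.01) with them and -0.78 without, whereas Trem2 was at 1.34 and Apoe at 0.52 without them.

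Ccl8 was seen in 3 of these 6 and in 4 of the other 58 virgin macrophages, although the 6 held only 19 of 133 of its UMIs, since a macrophage outside them held most. Cxcl9 was seen in 1 of the 6 and 7 of the 58, with 5 of 86 UMIs in the 6. Cd209b, Cd5l and Aqp1, at 0 in multipara like Marco and Ccl8, are named after their values were seen. Cd209b had 140 UMIs in 3 virgin macrophages, Cd5l 32 in 4 and Aqp1 38 in 1. Each difference of Cd209b, Cd5l and Aqp1 rested on 1 to 4 cells.

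A further exception was 1 virgin macrophage of 14858 UMIs with 81 UMIs of endothelial genes, including all 28 Plvap UMIs of the virgin macrophages. The doublet call did not flag this droplet, and whether it held more than 1 cell was not tested. No other virgin macrophage had more than 4 endothelial UMIs and no multipara macrophage more than 1. Fabp4, a fatty acid carrier also made by capillary endothelium, had 117 UMIs in 3 virgin and 2 UMIs in 2 multipara macrophages, with 70.1% of the virgin UMIs in 1 macrophage.

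Of genes chosen by their ratio among those with at least 60 UMIs, seen in at least 20% of the macrophages of the higher library and outside the lists of other cell types, the highest after Cd9 and Trem2 were Chd7, a chromatin remodeller (12 and 56 UMIs, 1.39, 0.48 to 2.43), Bcl2l11, which encodes the death regulator Bim (17 and 79 UMIs, 1.39, 0.62 to 2.24), and the sialyltransferase St8sia4 (12 and 51 UMIs, 1.26, 0.33 to 2.30). Osm, Setd3, Eif4e, Asph, Gdf3, Arhgap15 and Hmox1 followed, from 1.14 down to 0.95. After thinning Arhgap15 was at 0.15 and Eif4e at 0.57, and over the alternatives Hmox1 ranged from 0.49 to 1.62. Gdf3, of the TGF-beta family, had 22 UMIs in 7 virgin and 76 UMIs in 21 multipara macrophages and was close to absent elsewhere, at 4.09 and 0 CPM in C1q-low myeloid and 0 and 0 in endothelial droplets. The richest virgin macrophage held 40.9% of the virgin Gdf3 UMIs, and the ratio ranged from 0.76 to 2.45 over the alternatives. Chd7 was also present elsewhere, with 50.7 and 70.3 CPM in endothelial droplets against 32.7 and 85.8.

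At the other end stood Dnase1l3, a secreted nuclease that digests the DNA of dead cells, with 78 UMIs in 18 virgin and 32 UMIs in 12 multipara macrophages (-2.12, -2.76 to -1.50). Ccdc88a, an actin-binding protein gene, had 73 and 33 UMIs (-1.98, -2.61 to -1.36). Vcam1 was also among the lowest, and Sdc3, Lgals1, Zcchc6, Ier3, H2-Q7, P4hb, Sgpl1 and Aprt lay from -1.40 to -1.15. Without the macrophages rich in resident genes Lgals1 was at -0.12, Ier3 at -0.65 and Sgpl1 at -0.73, and after thinning P4hb was at -0.64 and Sgpl1 at -0.57. A single virgin macrophage held 33.3% of the Dnase1l3 UMIs, 30.1% of Ccdc88a, 27.9% of Vcam1, 27.4% of Sdc3 and 31.8% of Sgpl1. Zcchc6, P4hb and Aprt were spread more evenly, with 8.33%, 8.51% and 8.57% in the richest virgin macrophage.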

How the data were processed

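Islet cells of 1 virgin and 1 multipara library were measured with the 10x Genomics 3′ assay. The authors deposited raw UMI counts per gene and barcode. The submitters' processing notes name Cell Ranger 3.1.0, Seurat 3.0 and the GRCm38 (mm10) build. The files hold 94853806 virgin and 82503776 multipara UMIs over 31053 genes, of which 71 share a symbol and were kept by identifier. The membership rule was applied to these counts, and doublets were sought with the Scrublet method in scanpy 1.11.5. UMIs were then summed over macrophages per library and scaled to CPM. A gene was compared at 30 or more UMIs over both libraries and counted as higher or lower at 2-fold. A gene at 0 was bounded with 3 counts per library. Intervals were exact Poisson for levels, Clopper-Pearson for shares and conditional binomial for ratios (scipy 1.17.1). With 1 library per group no test was run and no p-value is given. Thinning drew 3500 UMIs per macrophage with a fixed seed. TMM factors came from edgeR 4.0.16. Genes named by ratio were the 12 highest and 12 lowest with at least 60 UMIs, seen in 20% or more of the macrophages of the library where they were higher and outside the lists of other cell types, beside genes of the lists and the 15 of largest excess over other low-hormone droplets. Members and gene lists were chosen with earlier results of these data known. Some genes counted within the lists are not reported here by name.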

Additional observations from a re-analysis of the deposited data

How the results depend on the processing

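Each group had 1 library, so no replicate could be left out. No paired analysis was possible because each group has 1 library and the labels carry no replicate numbers. The share of macrophages kept its order under each change of the membership rule, at 1.32% to 1.55% in virgin and 2.40% to 3.17% in multipara. The counts past 2-fold (42 higher and 130 lower) moved most: to 92 and 75 with TMM and 92 and 73 with median-of-ratios factors, to 87 and 203 with each macrophage weighted equally, to 140 and 277 after thinning, to 10 and 27 of 1706 genes at 60 UMIs and to 579 and 1532 of 9533 genes with no minimum. Without the macrophages rich in resident genes, an alternative chosen after seeing the data, there were 63 and 74. With no limit on hormone UMIs, endocrine genes reversed, Ins2 to -1.73, Ins1 to -1.59, Iapp to -1.64 and the beta cell list median to -1.61, since hormone-rich droplets then entered. The other causes were not tested. A group of 64 and 98 cells limits ratios of genes near 30 UMIs, whose intervals often spanned 0.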
